A study of Rattus norvegicus and Mus musculus with 24 samples.

Results

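The genes described here were 40 members of a pair of linked stress programmes, the ATF4 response and the unfolded protein response of the endoplasmic reticulum (ER), in kidneys of mice and rats lacking Ctns. They were taken by name from a list and matched to the rows of the tables by symbol. Of these, 39 were found among the 17376 symbols measured in mice and 36 among the 14931 measured in rats. HSP90B1 in both species and CEBPB, DDIT4 and EDEM1 in the rat were not analysed here. After a filter on low counts 38 members were tested in the mouse and 35 in the rat. FGF21, a hormone gene of the ATF4 response, fell under the filter in both species, with 0 reads in every mouse and 1 to 9 reads in the rats.

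Ctns encodes cystinosin, which exports cystine from lysosomes and is mutated in the storage disease cystinosis. RNA sequencing of 24 animals, 1 library each, compared 4 Ctns KO with 4 Ctns WT mice of the C57BL/6 background and 8 Ctns KO with 8 Ctns WT rats of the Sprague-Dawley background, the WT animals being littermates. The rats carry the numbers 17 to 24 and 25 to 32, with 4 of each genotype in each range, a split that the labels leave unexplained. No treatment is given for any of these animals, and their ages are not stated in the labels. The tissue is labelled kidney cortex, as in the study's methods, while the extraction note names proximal tubules dissected from mouse kidneys. Markers of proximal tubule, and also of macrophages and distal nephron, were detected in every group, with sums given at the end.

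The mouse libraries held 19309371 to 44449845 reads and the rat libraries 24684097 to 40629873. Ctns itself averaged 0.332 ± 0.0102 in Ctns KO and 0.918 ± 0.0869 in Ctns WT mice (SD, n = 4 each), a 2.75-fold fall (adjusted p = 1.64e-07, limma). In the rats, CTNS reads were 1.25-fold lower in Ctns KO within numbers 25 to 32 (adjusted p = 0.0111, edgeR), and within numbers 17 to 24 the log2 difference of -0.12 did not pass (adjusted p = 0.599). Reads outside a deleted part of a gene do not check a knockout, and which part is deleted was not given in the sources used here. The rats lay in 4 separate clusters by genotype and number range on the first 2 principal components, which held 48.9% and 23.4% of the variance, so changes within each range were tested beside those in all rats. Mouse Ctns KO number 3 stood apart in its reads of XIST, 49 against 17581 to 42003 in the other 7 mice. On the first principal component of the mice it lay among the other Ctns KO mice, at -22.6 beside -28.6, -26.1 and -14.2. Calls on members that were lost without this animal are marked. For Ctns itself, and for the pathway genes and markers outside the members, no result without it is given. Whether their mouse calls depend on it is therefore not known.

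ATF4 is a transcription factor whose protein is made when phosphorylation of eIF2 slows general translation. The kinase EIF2AK3 (PERK) phosphorylates eIF2 when unfolded proteins gather in the ER, and EIF2AK4 (GCN2) does so when amino acids run short. ATF4 then switches on genes for amino acid synthesis, import and redox balance. In parallel, ERN1 (IRE1), which splices XBP1 messenger RNA, and ATF6, which is cleaved in the Golgi, raise ER chaperones and the machinery that degrades misfolded proteins. ATF4 is regulated largely by translation, and XBP1 and ATF6 by splicing and cleavage, none of which a count of reads per gene measures.

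The promoters of 3 rat genes are printed because they hold response elements of these arms and their genes are described in full below. RefSeq sequences of assembly GRCr8, 250 bases before to 50 after each gene start, were matched for 35 of the 40 members. The ATF4 element was searched as TGATGNAA, the ER stress element as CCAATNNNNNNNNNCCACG and the XBP1/ATF6 element as TGACGTGG, on both strands, and each promoter shown held 1 match to 1 of the motifs. Each line runs 5′ to 3′ along the gene, and capitals mark the motif.
TRIB3, GRCr8 chr3:161275484-161275783, minus strand, ATF4 element on the opposite strand: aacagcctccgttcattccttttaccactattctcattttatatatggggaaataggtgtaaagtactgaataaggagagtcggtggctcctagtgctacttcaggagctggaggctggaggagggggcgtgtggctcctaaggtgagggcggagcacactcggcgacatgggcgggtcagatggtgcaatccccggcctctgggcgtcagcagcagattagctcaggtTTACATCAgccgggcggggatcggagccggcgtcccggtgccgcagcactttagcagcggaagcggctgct
HSPA5, GRCr8 chr3:38452766-38453065, plus strand, ER stress element: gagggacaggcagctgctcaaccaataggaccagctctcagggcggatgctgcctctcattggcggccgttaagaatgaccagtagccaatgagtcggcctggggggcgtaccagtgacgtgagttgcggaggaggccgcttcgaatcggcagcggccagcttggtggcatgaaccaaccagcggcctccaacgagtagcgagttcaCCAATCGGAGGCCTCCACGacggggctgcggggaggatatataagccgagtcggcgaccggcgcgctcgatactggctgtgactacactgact
CRELD2, GRCr8 chr7:121789134-121789433, plus strand, ER stress element on the opposite strand: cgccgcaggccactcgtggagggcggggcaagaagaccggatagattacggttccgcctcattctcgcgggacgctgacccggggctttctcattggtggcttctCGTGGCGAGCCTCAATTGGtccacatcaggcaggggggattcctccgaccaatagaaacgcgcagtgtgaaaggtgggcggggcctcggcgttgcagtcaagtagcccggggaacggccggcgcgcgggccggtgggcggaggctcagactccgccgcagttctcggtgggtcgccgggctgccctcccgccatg
The ATF4 element began 21 bases before the start of TRIB3 and was present in 4 of the 35 member promoters, those of NUPR1, TRIB3, FGF21 and HERPUD1, against 3.98% of all 33469 promoters in the set. The ER stress element was present in 7 of the 35, those of XBP1, HSPA5, HSP90B1, CALR, CANX, DNAJC3 and CRELD2, against 0.0657% of all promoters. Of the member promoters, that of HYOU1 alone held the third motif, which 0.595% of all promoters held. These are matches of letters within 300 bases.

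Among the 35 members tested in the rats of numbers 25 to 32, 16 were higher and 7 lower in Ctns KO than in Ctns WT, where 50.0% of all 11839 genes were called, 23.7% as higher and 26.2% as lower. Within numbers 17 to 24 only MTHFD2 was called higher and PSAT1 lower, where 6.96% of all genes were called, 5.05% as higher and 1.91% as lower. In the mouse 2 of 38 members were higher and 5 lower, where 8.65% of 13442 genes were called, 6.36% as higher and 2.29% as lower. With all 16 rats together, 7 were higher and 4 lower, where 27.5% of 11584 genes were called, 15.2% as higher and 12.3% as lower. That fit holds no term for the range, and with one 8 members were higher and 6 lower, ATF6 among them (adjusted p = 0.0375, edgeR). The share of all genes called with that term is not given here. Groups without any overlap were found in the rats of 25 to 32 for 14 members with Ctns KO above and 4 with Ctns KO below, beside 20.3% and 19.7% of all genes. They were found in the rats of 17 to 24 for 4 and 3 members, beside 7.93% and 5.79%, in the mouse for 4 and 8 members, beside 9.37% and 4.91%, and in all rats for 3 and 0 members, beside 3.89% and 1.95%. The median log2 change over the members tested was 0.12 in the rats of 25 to 32, -0.01 in those of 17 to 24 and -0.02 in the mouse, beside -0.01, -0.01 and 0.01 over all genes. The change was of larger size in the range 25 to 32 than in 17 to 24 for 30 of the 35 members. Such sizes were not counted over all genes, of which 50.0% were called in 25 to 32 and 6.96% in 17 to 24.

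**Figure D1:**
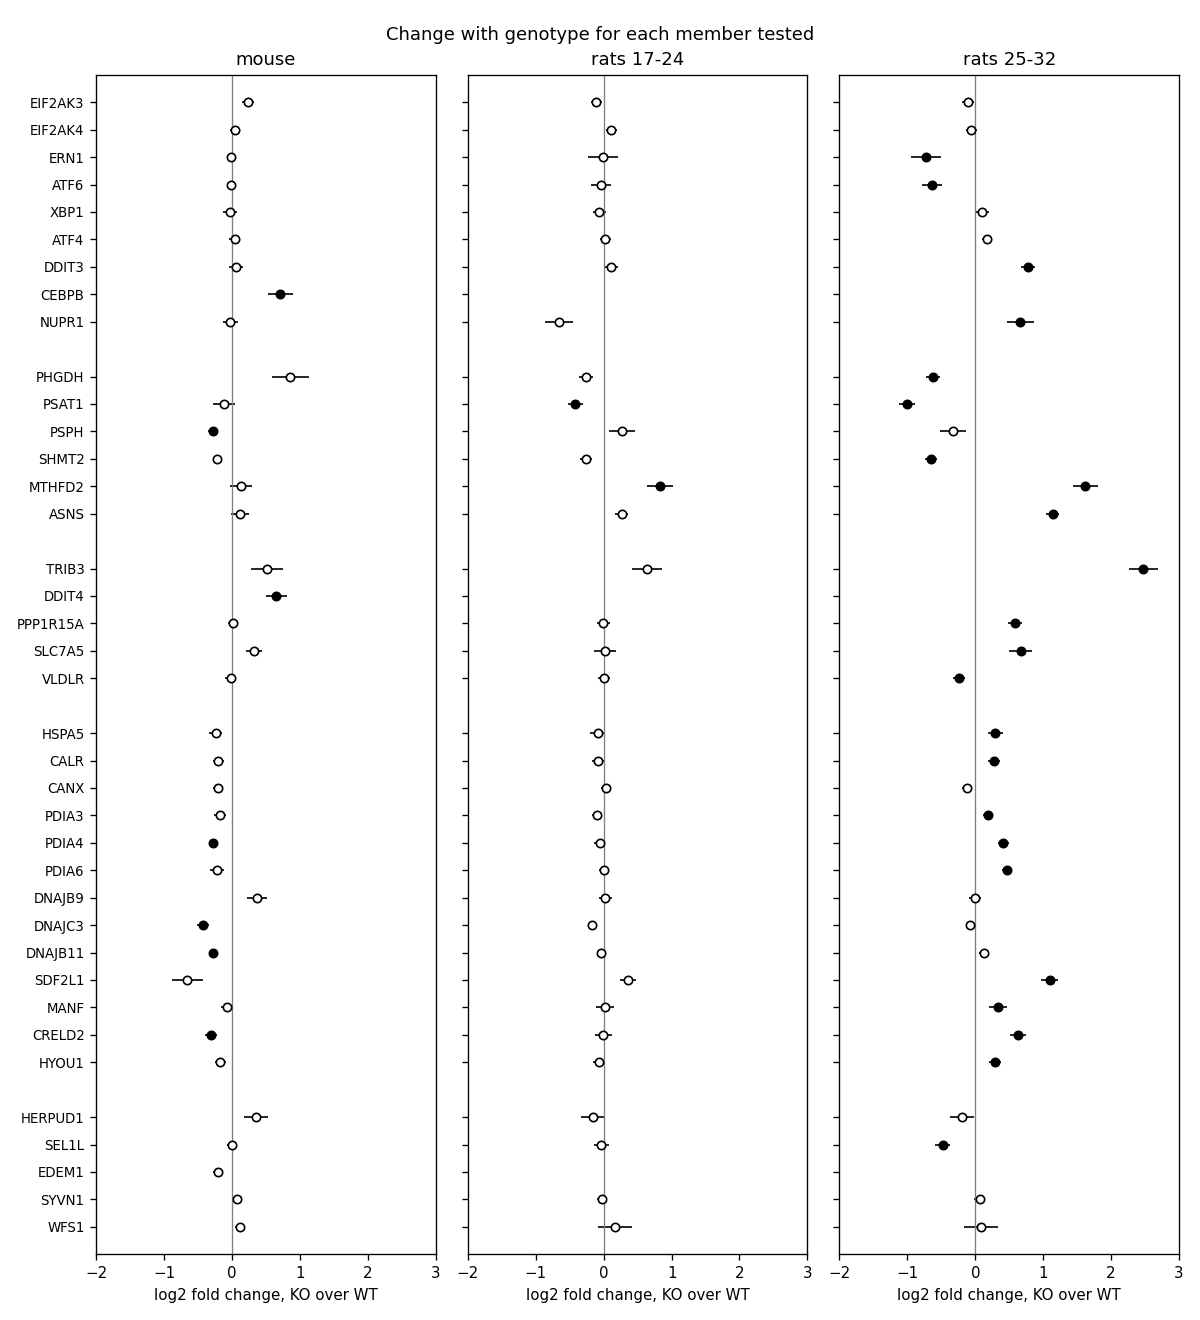
Log2 fold change of Ctns KO over Ctns WT (horizontal axis) with its standard error for each member tested, in the mouse (limma), the rats of numbers 17 to 24 and those of 25 to 32 (edgeR), grouped from top by role; filled points passed an adjusted p of 0.05. The right panel holds 23 filled points, the middle panel 2 and the left panel 7, and the 13 genes of the ER folding block lie mostly left of 0 in the mouse and mostly right of 0 in the rats of 25 to 32.

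The messenger RNA of ATF4 did not pass the test in any comparison, while several of its known targets did. In the rats of numbers 25 to 32 ATF4 was 189, 171, 183 and 211 CPM (a gene's share of the counts of its library, scaled by TMM) in the Ctns WT and 199, 206, 211 and 238 CPM in the Ctns KO animals. The groups overlapped, and the log2 difference was 0.17 ± 0.08 (SE, adjusted p = 0.0753, edgeR). Without Ctns WT number 31 the difference passed (adjusted p = 0.0134). In the mouse, where a level is the reads of a gene over the 75th percentile of its library, ATF4 was 2.08 ± 0.205 in Ctns KO and 2.02 ± 0.183 in Ctns WT (SD, n = 4 each).

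DDIT3 encodes CHOP, a transcription factor that promotes cell death in prolonged ER stress. Its levels in the rats of numbers 25 to 32 were 20.5, 17.5, 22 and 25.8 CPM in Ctns WT and 32.5, 37.8, 40.7 and 35.9 CPM in Ctns KO. Every Ctns KO rat lay above every Ctns WT rat, and the fold was 1.71 (adjusted p = 1.07e-05, edgeR). In numbers 17 to 24 DDIT3 was 19.5 ± 1.5 CPM in Ctns WT and 20.9 ± 1.58 CPM in Ctns KO (SD, n = 4 each), and the log2 change differed between the ranges by 0.67 ± 0.15 (adjusted p = 0.00698, edgeR). Of the 35 members, 11 changed differently in the ranges, where 14.7% of all genes did, 7.10% upwards and 7.64% downwards: ASNS, TRIB3, PDIA6, DDIT3, NUPR1, PDIA4, SDF2L1, PPP1R15A and CRELD2 more upwards in 25 to 32, PSAT1 and SHMT2 more downwards. The difference was lost for CRELD2 without Ctns KO number 28 (adjusted p = 0.0527) and for SHMT2 without Ctns KO number 18, 22, 28 or 32 or Ctns WT number 17, 19, 27 or 29 (adjusted p up to 0.0710). For PDIA6 and PPP1R15A no such check is given. In the mouse DDIT3 was 0.291 ± 0.0359 in Ctns KO and 0.279 ± 0.0279 in Ctns WT (SD, n = 4 each).

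Of the ER sensors, ATF6 and ERN1 were lower in the same rats, and EIF2AK3 did not pass. ATF6, the sensor that becomes a transcription factor when cleaved, was 108, 139, 106 and 101 CPM in Ctns WT and 84.5, 63.8, 89.6 and 55.6 CPM in Ctns KO of numbers 25 to 32. The Ctns KO levels lay below all Ctns WT levels, at a 1.55-fold difference (adjusted p = 0.00176, edgeR). ERN1 fell 1.65-fold there, from 13.7 ± 3.80 to 8.29 ± 2.58 CPM (SD, n = 4 each), with overlapping groups (adjusted p = 0.0128, edgeR), and did not pass without Ctns KO number 32 or Ctns WT number 27 (adjusted p up to 0.0552). EIF2AK3 and EIF2AK4 had log2 differences of -0.11 and -0.06, and neither passed. XBP1 was 121 to 150.1 CPM in Ctns KO and 114 to 145 CPM in Ctns WT of that range (n = 4 each), at a log2 difference of 0.10 ± 0.10 (SE), and spliced and unspliced forms were not told apart. In the mouse ERN1, ATF6 and XBP1 had log2 differences of -0.02, -0.02 and -0.04.

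NUPR1, a small chromatin protein induced by stress, had opposite signs in the rat ranges. Within numbers 17 to 24 it was 2.54, 2.68, 3.04 and 2.89 CPM in Ctns WT and 2.30, 1.76, 1.23 and 1.76 CPM in Ctns KO. Within 25 to 32 it was 2.23, 1.86, 2.03 and 3.45 CPM in Ctns WT and 3.61, 4.16, 3.04 and 4.33 CPM in Ctns KO. The first difference did not pass (log2 -0.66, adjusted p = 0.0667, edgeR), the second did (log2 0.66, adjusted p = 0.0111) and the difference between them was 1.32 ± 0.29 (SE, adjusted p = 0.00700). The first also passed without Ctns KO number 18 and with DESeq2 (adjusted p = 0.0371 and 0.0280). These rest on 35 to 122 reads per rat, and 14 of the 16 rat values of NUPR1 were not whole reads before rounding, so its level is uncertain to that extent. In the mouse NUPR1 was 0.256 ± 0.0255 in Ctns KO and 0.261 ± 0.0297 in Ctns WT (SD, n = 4 each).

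CEBPB, a transcription factor of inflammation and a partner of ATF4, was among the 2 members that rose in the mouse. It was 0.164, 0.1, 0.124 and 0.146 in the Ctns WT and 0.182, 0.291, 0.227 and 0.179 in the Ctns KO mice. The groups did not overlap, as for 9.37% of all mouse genes in this direction, and the fold was 1.64 (adjusted p = 0.0297, limma). The call was lost without Ctns KO number 5 or 6 or without Ctns WT number 4 (adjusted p = 0.0828, 0.0989 and 0.0828).

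The serine, glycine, asparagine and one-carbon enzymes split into a pair that rose and 3 that fell in the rats of numbers 25 to 32, with PSPH not passing except with the 8 rats of the range fitted alone (log2 -0.33, adjusted p = 0.0254, edgeR). ASNS makes asparagine and is a standard readout of ATF4 activity. It was 8.33, 7.68, 7.76 and 8.38 CPM in Ctns WT and 15.7, 20.4, 17.5 and 17.4 CPM in Ctns KO rats of 25 to 32. No Ctns KO rat came near the Ctns WT range, and the fold was 2.20 (adjusted p = 5.95e-08, edgeR). For the range 17 to 24 ASNS was 8.17, 8.02, 9.25 and 7.97 CPM in Ctns WT and 9.68, 11.3, 9.82 and 9.42 CPM in Ctns KO. There too the groups did not overlap, as for 7.93% of all genes in that direction, but the 1.20-fold difference did not pass (adjusted p = 0.105), and the changes in the ranges differed (log2 0.87 ± 0.13, SE, adjusted p = 6.60e-04, edgeR).

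MTHFD2, the mitochondrial enzyme that oxidises one-carbon units from serine, rose in both rat ranges. In numbers 17 to 24 it was 2.29, 2.42, 1.54 and 1.35 CPM in Ctns WT and 3.10, 3.59, 3.45 and 3.33 CPM in Ctns KO, a 1.78-fold difference (adjusted p = 0.0115, edgeR). In numbers 25 to 32 it was 2.12, 1.71, 2.07 and 1.30 CPM in Ctns WT and 4.48, 6.13, 5.90 and 5.71 CPM in Ctns KO, a 3.08-fold difference (adjusted p = 2.48e-06). The first call was lost without Ctns WT number 21 (adjusted p = 0.0512). In the mouse MTHFD2 was 0.101 ± 0.0169 in Ctns KO and 0.0925 ± 0.0144 in Ctns WT (SD, n = 4 each), and the change over all 16 rats, from which every difference between species was taken, was larger by a log2 of 1.15 ± 0.29 (SE, adjusted p = 0.0391, limma). That difference between species was lost without any 1 of 14 of the 24 animals, namely every Ctns KO mouse, Ctns WT mouse 4 or 7, each Ctns KO rat of numbers 25 to 32 and Ctns WT rat 21, 23, 27 or 31 (adjusted p up to 0.0915), and with log2(value + 1), where it was 0.07 (adjusted p = 0.0913).

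The enzymes upstream in serine synthesis fell in the same animals. PSAT1, which makes phosphoserine, was 253, 293, 247 and 252 CPM in Ctns WT and 155, 126, 119 and 123 CPM in Ctns KO rats of numbers 25 to 32. This was a 2.005-fold fall with no overlap (adjusted p = 1.87e-06, edgeR). For the range 17 to 24 PSAT1 was 319, 263, 347 and 342 CPM in Ctns WT and 276, 217, 260 and 199 CPM in Ctns KO, overlapping at 1 pair of animals and 1.34-fold lower (adjusted p = 0.0295). That call was lost without Ctns KO number 20 or 24 or Ctns WT number 17, 21 or 23 and with the 8 rats of the range fitted alone (adjusted p up to 0.107).

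PHGDH, the first enzyme of serine synthesis, was 205, 230, 263 and 254 CPM in Ctns WT and 173, 161, 121 and 166 CPM in Ctns KO rats of 25 to 32, 1.54-fold lower (adjusted p = 1.55e-04, edgeR). SHMT2, which turns serine into glycine in mitochondria, was 276, 291, 305 and 290 CPM in Ctns WT and 204, 192, 168 and 179 CPM in Ctns KO, 1.57-fold lower (adjusted p = 6.66e-06). Neither gene's groups overlapped in that range. Within 17 to 24 the log2 difference was -0.26 for each and did not pass (adjusted p = 0.178 and 0.0695), although SHMT2 did without Ctns WT number 17 (adjusted p = 0.0116) and with DESeq2. PHGDH in the Ctns WT rats also differed by range, with 151 to 176 CPM in 17 to 24 against 205 to 263 CPM in 25 to 32. In the mouse SHMT2 was lower without overlap, as for 4.91% of all genes in that direction. Its log2 difference of -0.22 did not pass (adjusted p = 0.0592, limma), except without Ctns WT number 7 and with edgeR or DESeq2.

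PHGDH leaned the other way in the mouse, at 0.200, 0.510, 0.299 and 0.388 in Ctns WT and 0.517, 0.700, 0.599 and 0.590 in Ctns KO. All Ctns KO values exceeded the Ctns WT values, with a log2 difference of 0.86 ± 0.28 that did not pass (adjusted p = 0.121, limma) except without Ctns WT number 2 (adjusted p = 0.0198). The changes in the 2 species differed by a log2 of -1.26 ± 0.27 (SE, adjusted p = 0.0112, limma). It was 1 of 4 members whose change differed between species, with SDF2L1, MTHFD2 and DNAJB11, where 2.03% of 10681 genes differed, 1.25% upwards and 0.777% downwards in the rat. PSPH, the last enzyme of serine synthesis, fell 1.21-fold in the mouse, from 0.426 ± 0.0323 to 0.351 ± 0.0145 (SD, n = 4 each, adjusted p = 0.0442, limma). Its call was kept only without Ctns WT number 1 when each mouse was left out in turn (adjusted p up to 0.124).

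**Figure D2:**
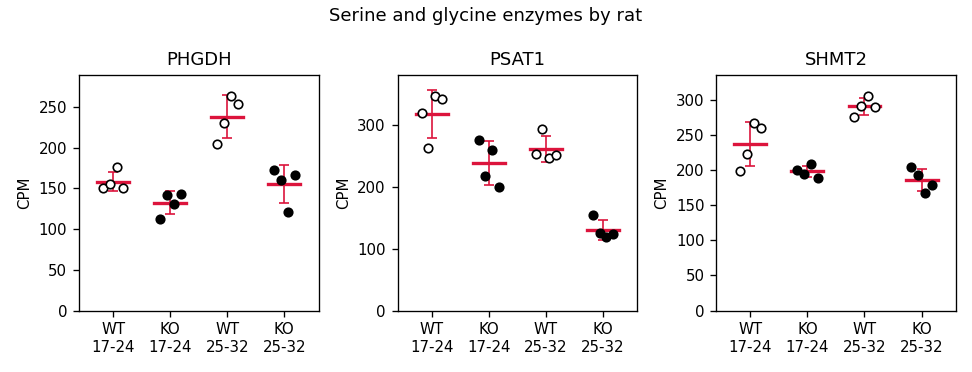
Levels of PHGDH, PSAT1 and SHMT2 in CPM (vertical axis) for each rat, as open points for Ctns WT and filled points for Ctns KO, by number range, with the mean (red line) and SD (bar) of 4 rats. In the range 25 to 32 every Ctns KO rat lies below every Ctns WT rat for all 3 genes, and the PHGDH level of the Ctns WT rats is itself higher in that range.

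Of the remaining ATF4 response genes TRIB3 moved most. TRIB3 encodes a pseudokinase that feeds back on ATF4 and CHOP, and its promoter is the first printed above. It was 0.781, 0.775, 1.24 and 0.926 CPM in Ctns WT and 4.14, 6.75, 5.38 and 4.45 CPM in Ctns KO rats of numbers 25 to 32. The lowest Ctns KO rat was above the highest Ctns WT rat, and the fold was 5.57 (adjusted p = 9.97e-08, edgeR), on 21 to 33 reads in Ctns WT and 110 to 198 in Ctns KO. In numbers 17 to 24 it was 1.09, 1.27, 1.08 and 1.13 CPM in Ctns WT and 1.34, 2.41, 1.73 and 1.67 CPM in Ctns KO, without overlap but not past the threshold (1.56-fold, adjusted p = 0.0914) except without Ctns KO number 18 (adjusted p = 0.0478). The log2 changes in the ranges differed by 1.84 ± 0.30 (SE, adjusted p = 0.00131, edgeR). In the mouse TRIB3 was 0.0444 ± 0.0117 in Ctns KO and 0.0308 ± 0.00704 in Ctns WT (SD, n = 4 each), on 21 to 95 reads, and did not pass (adjusted p = 0.223, limma).

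PPP1R15A encodes GADD34, which removes the phosphate from eIF2 and so ends the response. It rose 1.51-fold in the rats of 25 to 32, from 28.1 ± 3.91 to 42.4 ± 5.55 CPM (SD, n = 4 each, adjusted p = 1.45e-04, edgeR), and was 28.4 CPM on average in both genotypes of 17 to 24. SLC7A5, the light chain of a transporter of large neutral amino acids, was 7.51, 7.91, 9.38 and 7.56 CPM in Ctns WT and 10.1, 15.0, 14.8 and 11.8 CPM in Ctns KO of 25 to 32 (1.59-fold, adjusted p = 0.00361). Its groups did not overlap in that range. In 17 to 24 SLC7A5 was 11.2 ± 2.51 CPM in Ctns WT and 11.4 ± 2.30 CPM in Ctns KO (SD, n = 4 each). The SLC7A5 changes in the ranges did not differ past the threshold (log2 0.65 ± 0.24, SE, adjusted p = 0.0735, edgeR). They did with DESeq2 and without Ctns KO number 20 or 26. VLDLR, a lipoprotein receptor induced by ATF4, fell by 0.24 on the log2 scale there (adjusted p = 0.0320, edgeR). For PPP1R15A and VLDLR no check by leaving out animals is given.

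In the mouse the gene of this group that rose was DDIT4. It encodes REDD1, an inhibitor of mTORC1 induced by ATF4 and other stresses. It was 0.350, 0.302, 0.312 and 0.262 in Ctns WT and 0.369, 0.643, 0.493 and 0.450 in Ctns KO mice, without overlap and 1.57-fold higher (adjusted p = 0.0226, limma). The call was lost without Ctns KO number 6 or Ctns WT number 4 or 7 (adjusted p up to 0.0746).

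**Figure D3:**
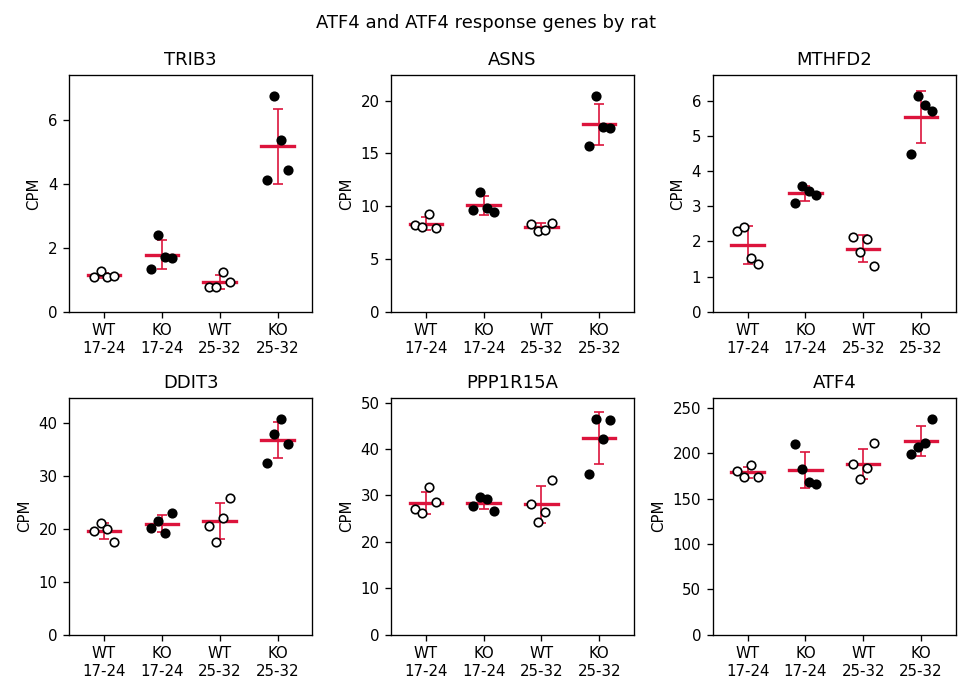
Levels of TRIB3, ASNS, MTHFD2, DDIT3, PPP1R15A and ATF4 in CPM (vertical axes) for each rat, as open points for Ctns WT and filled points for Ctns KO, by number range, with the mean (red line) and SD (bar) of 4 rats. The 4 Ctns KO rats of 25 to 32 lie above all Ctns WT rats of that range for the first 5 genes, with TRIB3 at 4.14 to 6.75 CPM against 0.775 to 1.24 CPM, while the ATF4 groups overlap.

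Most ER chaperones, cochaperones and disulphide isomerases had opposite signs in the mouse and in the rats of numbers 25 to 32, but not in the mouse and the rats of 17 to 24. Of 13 genes tested in both, 12 had a negative log2 difference in the mouse, 10 a positive one in the rats of 25 to 32, and 10 both. Of the same 13, 8 were negative in the rats of 17 to 24. The share of all genes with such signs was not counted. Those past the threshold were DNAJC3, CRELD2, PDIA4 and DNAJB11, all lower, in the mouse, at 2.29% of all genes lower. In the rats of 25 to 32 they were 9 genes, all higher, at 23.7% of all genes higher. The group's median log2 change was -0.22 in the mouse, -0.03 in the rats of 17 to 24 and 0.29 in those of 25 to 32. Over all genes it was 0.01, -0.01 and -0.01. The difference between species was itself past the threshold for SDF2L1 and DNAJB11.

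SDF2L1, a partner of the chaperone HSPA5 in the ER lumen, had the largest difference between species of this group. Unlike most of the group, its sign was opposite to the mouse in both rat ranges. In the rats of 25 to 32 it was 16.8, 13.5, 15.4 and 14.1 CPM in Ctns WT and 27.5, 36.9, 32.9 and 30.6 CPM in Ctns KO, a 2.13-fold rise (adjusted p = 1.48e-06, edgeR). For the range 17 to 24 it was 15.4, 10.5, 15.7 and 12.4 CPM in Ctns WT and 15.9, 17.8, 16.6 and 19 CPM in Ctns KO (1.28-fold, adjusted p = 0.0913). In both ranges every Ctns KO rat was above every Ctns WT rat. In the mouse it was 0.321, 0.335, 0.328 and 0.638 in Ctns WT and 0.198, 0.269, 0.254 and 0.269 in Ctns KO. All Ctns KO mice lay below all Ctns WT mice, but the 1.58-fold difference did not pass (adjusted p = 0.125, limma) except without Ctns WT number 7, the high animal (adjusted p = 0.0435). The log2 changes differed between species by 1.43 ± 0.31 (SE, adjusted p = 0.0133, limma), a call kept when each animal was left out in turn.

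CRELD2, an ER-resident protein released under ER stress and the third promoter above, fell in the mouse and rose in the rats of 25 to 32. It was 0.809, 0.672, 0.743 and 0.846 in Ctns WT and 0.556, 0.637, 0.592 and 0.681 in Ctns KO mice, overlapping at 1 pair of animals and 1.24-fold lower (adjusted p = 0.0375, limma). That call was lost without Ctns KO number 3, 5 or 6 or Ctns WT number 1, 4 or 7 (adjusted p up to 0.120). In the rats of 25 to 32 it was 25.4, 25.1, 33.7 and 28.9 CPM in Ctns WT and 38.8, 47.8, 45.0 and 43.4 CPM in Ctns KO, 1.54-fold higher without overlap (adjusted p = 4.16e-04, edgeR). In those of 17 to 24 CRELD2 was 34.4 ± 6.0 CPM in Ctns WT and 34.3 ± 3.8 CPM in Ctns KO (SD, n = 4 each). The difference between the species did not pass (log2 0.67 ± 0.18, SE, adjusted p = 0.0524, limma). It did pass with log2(value + 1), with edgeR on the reads of both species (adjusted p = 0.0456 and 0.0454), and without Ctns WT mouse 2, Ctns KO rat 20 or 22 or Ctns WT rat 21 or 23 (adjusted p down to 0.0217).

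PDIA4, a disulphide isomerase, followed the same course. It was 3.21, 3, 3.02 and 3.27 in Ctns WT and 2.35, 2.66, 2.52 and 2.82 in Ctns KO mice (1.21-fold lower, adjusted p = 0.0223, limma). It was 92.5, 87.5, 98.0 and 87.2 CPM in Ctns WT and 113, 128, 129 and 118 CPM in Ctns KO rats of 25 to 32 (1.33-fold higher, adjusted p = 3.44e-04, edgeR). The groups did not overlap in either set of animals, and the mouse call was lost without Ctns KO number 3, 5 or 6 or Ctns WT number 7 (adjusted p up to 0.0787). The PDIA4 level of the Ctns WT rats was itself 119 ± 15.0 CPM in 17 to 24 and 91.3 ± 5.09 CPM in 25 to 32, while that of the Ctns KO rats was 114 ± 6.38 and 122 ± 7.55 CPM (SD, n = 4 each). PDIA6, another isomerase, rose 1.38-fold in the rats of 25 to 32, from 172 ± 10.4 to 238 ± 10.8 CPM (SD, n = 4 each, adjusted p = 2.85e-05, edgeR). In 17 to 24 PDIA6 was 201 ± 20.5 CPM in Ctns WT and 202 ± 5.2 CPM in Ctns KO (SD, n = 4 each). No check by leaving out animals is given for PDIA6.

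HSPA5, also called BiP, is the main chaperone of the ER and holds its sensors inactive. It was 605, 580, 732 and 622 CPM in Ctns WT and 773, 795, 801 and 761 CPM in Ctns KO rats of 25 to 32, a 1.23-fold rise without overlap (adjusted p = 0.0280, edgeR). The call was lost without Ctns KO number 28 or 30 or Ctns WT number 27 (adjusted p up to 0.0825). In numbers 17 to 24 the Ctns WT rats alone spread from 616 to 912 CPM around Ctns KO levels of 648 to 762 CPM. In the mouse HSPA5 was 9.75 ± 1.32 in Ctns KO and 11.5 ± 0.954 in Ctns WT (SD, n = 4 each, adjusted p = 0.163, limma). MANF, HYOU1, CALR and PDIA3, also ER residents, passed as higher in the rats of 25 to 32 with log2 changes of 0.34, 0.29, 0.27 and 0.18. Their adjusted p were 0.0449, 0.00931, 0.0153 and 0.0329 (edgeR), and the MANF groups overlapped. No check by leaving out animals is given for these genes. The HYOU1 level of the Ctns WT rats was itself 152 ± 20.3 CPM in 17 to 24 and 126 ± 8.8 CPM in 25 to 32 (SD, n = 4 each).

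DNAJC3 and DNAJB11 are cochaperones of HSPA5 and were lower in the mouse. DNAJC3, which also inhibits PERK, was 5.7, 5, 5.98 and 7.10 in Ctns WT and 4.31, 4.26, 4.34 and 4.68 in Ctns KO mice. The fall was 1.34-fold without overlap (adjusted p = 0.0102, limma) and passed whichever mouse was left out (adjusted p up to 0.0456). In the rats of 25 to 32 DNAJC3 was 70.4 ± 2.62 CPM in Ctns WT and 66.8 ± 3.33 CPM in Ctns KO (SD, n = 4 each), so it did not follow SDF2L1 and CRELD2 there. DNAJB11 was 2.25, 2.23, 2.21 and 2.57 in Ctns WT and 1.83, 1.98, 1.88 and 1.95 in Ctns KO mice, 1.21-fold lower without overlap (adjusted p = 0.0175). Its call was lost without Ctns KO number 3 or 6 (adjusted p = 0.0604 and 0.0634). The DNAJB11 difference between species of 0.36 ± 0.10 on the log2 scale (SE, adjusted p = 0.0470) was lost without any 1 of 17 of the 24 animals, namely every Ctns KO mouse, Ctns WT mouse 1, 4 or 7, each Ctns KO rat of 25 to 32 and Ctns WT rat 17, 19, 21, 23, 25 or 27 (adjusted p up to 0.115).

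Without Ctns KO number 3, which stood apart in its reads of XIST, 3 members were higher and 1 lower in the mouse, in place of 2 and 5. The share of all genes called without this animal is not given here. CRELD2, DNAJB11, PDIA4 and PSPH then missed the threshold, with adjusted p of 0.117, 0.0604, 0.0770 and 0.102 (limma), and DNAJC3 remained called at -0.42.

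**Figure D4:**
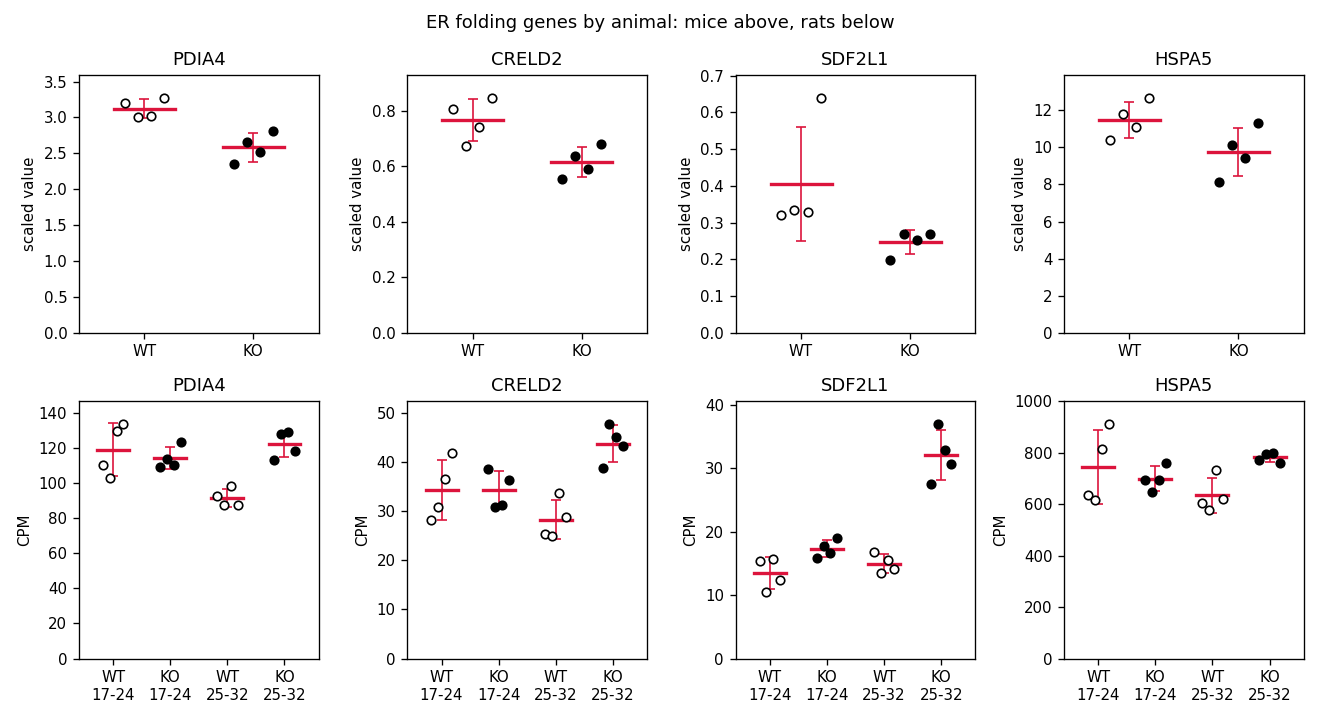
Levels of PDIA4, CRELD2, SDF2L1 and HSPA5 for each animal, as open points for Ctns WT and filled points for Ctns KO, with the mean (red line) and SD (bar) of 4 animals; upper panels are mice (reads over the 75th percentile of the library), lower panels rats by number range (CPM). For PDIA4 and SDF2L1 the Ctns KO mice lie below and the Ctns KO rats of 25 to 32 above all Ctns WT animals of their set, and 1 Ctns WT mouse at 0.638 sets the spread of SDF2L1.

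Of the genes of ER-associated degradation HERPUD1, SEL1L, SYVN1 and WFS1 only SEL1L, a subunit of the ubiquitin ligase that clears misfolded proteins, passed in any comparison, falling 1.39-fold in the rats of 25 to 32 (adjusted p = 0.00189, edgeR). For SEL1L no check by leaving out animals is given. HERPUD1, an ATF4 and ATF6 target with the ATF4 element in its promoter, was 205 ± 19.9 CPM in Ctns KO and 233 ± 35.9 CPM in Ctns WT of that range (SD, n = 4 each). WFS1, an ER membrane protein, varied widely within both genotypes of 17 to 24, with SDs of 23.1 CPM in Ctns KO and 16.8 CPM in Ctns WT. In the mouse 0 of 5 genes passed with limma, edgeR or DESeq2, and 1 had an unadjusted p under 0.05.

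Other genes of the same pathways, from lists of known function that hold no member, were counted in the same way, beside the shares of all genes given above for each comparison. Their calls, in the mouse as in the rat, are given without a check by leaving out animals. Of 36 further ATF4 response genes tested in the mouse, 6 were higher and 1 lower, where 6.36% and 2.29% of all genes were. In the rats of 25 to 32, 12 of 33 were higher and 9 lower, where 23.7% and 26.2% of all genes were, and in those of 17 to 24, 4 were higher and 1 lower, where 5.05% and 1.91% were. Of 50 further ER genes, 1 was higher and 2 lower in the mouse, where 6.36% and 2.29% of all genes were. Of 45 tested in the rats of 25 to 32, 15 were higher and 5 lower, where 23.7% and 26.2% were. In those of 17 to 24, 0 of the 45 were called with edgeR and 1 with DESeq2. Of 11 further regulators of eIF2, 0 were higher and 4 lower in the rats of 25 to 32, where 26.2% of all genes were lower. Among the 4 was IMPACT, a regulator of GCN2, at -0.44 on the log2 scale. In the mouse and in the rats of 17 to 24, 0 of the 11 were called.

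GDF15, a stress hormone, rose in both species. It was 0.0530 ± 0.0127 in Ctns WT and 0.316 ± 0.0246 in Ctns KO mice (SD, n = 4 each, 6.09-fold, adjusted p = 8.52e-07, limma). In the rats it rose 2.69-fold within 17 to 24 and 4.08-fold within 25 to 32 (adjusted p = 6.05e-07 and 9.35e-10, edgeR). ATF3, a transcription factor acting beside ATF4, rose 2.65-fold in the mouse, 2.66-fold in the rats of 17 to 24 and 6.95-fold in those of 25 to 32 (adjusted p = 6.28e-04, 2.44e-04 and 1.69e-08). Both genes thus rose in the mouse and in the rats of 17 to 24, where DDIT3 and TRIB3 did not pass. STC2, a secreted glycoprotein of the ER stress response, rose 2.90-fold in the mouse (adjusted p = 3.34e-06, limma), and its log2 difference in the rats pooled was 0.08 ± 0.35 (SE).

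SLC7A11 was singled out after its values were seen, because it imports the amino acid that Ctns exports from lysosomes. It had 0 to 3 reads in each of the 8 Ctns WT rats, 11 to 28 in the Ctns KO rats of 17 to 24 and 49 to 76 in those of 25 to 32. The groups did not overlap, and both ranges passed (adjusted p = 6.28e-04 and 5.48e-07, edgeR). In the mouse SLC7A11 had 3 to 16 reads and was not tested. CTH, which makes cysteine from cystathionine, fell in both species, 1.27-fold in the mouse (adjusted p = 0.0234, limma), 1.18-fold in the rats of 17 to 24 and 1.52-fold in those of 25 to 32 (adjusted p = 0.0490 and 3.18e-06, edgeR).

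NIBAN1, a regulator of translation under stress, rose 3.58-fold in the rats of 25 to 32, whereas SESN2, an mTORC1 inhibitor induced by ATF4, fell 1.5-fold and XPOT, the exporter of transfer RNA, 1.81-fold (adjusted p = 2.13e-05, 9.72e-05 and 2.27e-06, edgeR). Among the ER genes, DERL3, a degradation factor abundant in secretory cells, was 1.69 ± 0.238 CPM in Ctns WT and 9.83 ± 1.98 CPM in Ctns KO rats of 25 to 32 (SD, n = 4 each, 5.80-fold, adjusted p = 3.13e-06). Over all 16 rats its change differed from that in the mouse, where it was 0.117 ± 0.0668 in Ctns WT and 0.0454 ± 0.00813 in Ctns KO (log2 difference between species 2.87 ± 0.68, SE, adjusted p = 0.0245, limma). KDELR3, a receptor that returns ER proteins from the Golgi, rose 2.50-fold in the mouse and 2.18-fold in the rats of 25 to 32 (adjusted p = 0.00140, limma, and 2.12e-06, edgeR). SPCS2, a subunit of the signal peptidase, fell 1.15-fold in the mouse and rose 1.17-fold in those rats (adjusted p = 0.0478 and 0.00563).

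Markers of several cell types moved in the same comparisons, and in such bulk samples fewer cells of a type and less RNA per cell cannot be told apart. The summed level of the proximal tubule markers was 29500 to 32900 CPM in Ctns WT and 15700 to 19400 CPM in Ctns KO rats of 25 to 32, with 9 of 10 markers lower. It was 22700 to 26300 and 19400 to 20500 CPM in 17 to 24, and 25300 to 30700 and 22300 to 25400 CPM in the mouse. Tubular injury markers were at 703 to 800 and 4540 to 6620 CPM in 25 to 32, where all 9 rose, at 758 to 880 and 1510 to 2190 CPM in 17 to 24, and at 1970 to 2850 and 4060 to 5210 CPM in the mouse. Macrophage markers were higher for 9 of 11 genes in 25 to 32 and 12 of 12 in the mouse, where their sum was 305 to 353 CPM in Ctns WT and 485 to 632 CPM in Ctns KO. In the rats of 25 to 32 this sum overlapped, at 1500 to 1870 CPM in Ctns WT and 1710 to 2480 CPM in Ctns KO. It overlapped also in 17 to 24, at 1370 to 1480 and 1390 to 1600 CPM. Markers of B cells and of plasma cells, secretory cells known to express DERL3, summed to 2.07 to 2.67 CPM in Ctns WT and 4.94 to 6.10 CPM in Ctns KO rats of 25 to 32. Of these, 2 of 3 tested rose there and 0 of 7 passed in the mouse. Markers of T and NK cells rose for 8 of 8 genes in those rats and had 0 of 8 calls in the mouse, markers of fibroblasts and matrix for 6 of 8 in the rats and 4 of 8 in the mouse, and markers of distal nephron for 2 of 5 in the rats. The distal nephron markers summed to 2950 to 3640 CPM in Ctns WT and 4090 to 4920 CPM in Ctns KO rats of 25 to 32. Their sum was 3750 to 4490 and 4120 to 4520 CPM in 17 to 24. In the mouse it was 8410 to 9690 and 10200 to 11200 CPM. Podocyte and endothelial markers fell for 4 of 7 in the rats and 1 of 8 in the mouse. None of the markers found was at 0 in all animals of a group, and the part of these cells in the members' results was not tested.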

How the data were processed

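RNA from 8 mice and 16 rats was sequenced as 100-nt stranded, paired mRNA libraries. The submitters' processing notes name bcl2fastq 2.20, STAR 2.7.3, R 3.6.1, DESeq2 1.24.0 and the builds mm10 and rn5, without their roles. The mouse table was deposited as a scaled signal, the authors' reads plus 0.5 over the library's 75th percentile plus 0.5, from which 99% of values gave whole reads within 0.01. The rat table was deposited by the authors as estimated counts, reads plus 1/6, of which 97.7% of values were whole, and the counts were rounded. Symbols are of human style, and rodent genes sharing one cannot be told apart.

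Mouse values were tested as log2(value), with no added pseudocount, by limma 3.58.1 with a trend and robust variance. This departs from an earlier analysis with log2(value + 1), which shrinks the folds of low genes. Rat counts were tested by edgeR 4.0.16 (quasi-likelihood, TMM) in R 4.3.3. Low counts were removed by filterByExpr. Each rat range and the difference between them came from 1 fit to all 16 rats, and the species difference from a limma interaction. P-values were adjusted by Benjamini-Hochberg over all genes tested, at a threshold of 0.05, and measure only the spread between these animals. DESeq2 1.42.0, other filters, scalings and pseudocounts, and leaving out each animal were the alternatives. Libraries of a group differed by more than counting noise (chi-square over its degrees of freedom at least 12.7 in mice and 8.85 in rats).

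In simulated data with 200 genes changed 2-fold, 90.5% were recovered in the mouse comparison (13383 genes, 12 false calls), 93.5% in the rats pooled (11542 genes, 16 false calls), 87% within 25 to 32 (11770 genes, 6 false calls) and 76% for the difference between ranges (11770 genes, 6 false calls). Within 17 to 24 it was 85% (11774 genes, 8 false calls). For the difference between species it was 85.7% of 189 changed genes (10633 genes, 2 false calls). All other genes were simulated without any difference between groups. Smaller folds, such as most of those of the members, were not simulated, so these shares do not apply to them.

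The members and lists were chosen with earlier results of these data known. Values are given for ATF4, HSPA5, DDIT3 and XBP1, members called in the mouse, up to 12 called in the rats with the largest change, up to 6 differing most between ranges or species, and up to 3 genes per direction and species from each further list with a mean of at least 1 CPM. Others named were chosen after their values were seen.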

Additional observations from a re-analysis of the deposited data

Results flagged for a closer look

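In 7 of the 124 groups of 4 animals examined, 1 animal lay far from the other 3 by Dixon's criterion, and chance gives about 1 in 20. In the mouse, XBP1 was 2.99 in Ctns WT number 1 against 2.53 to 2.60 in the others, DNAJB11 2.57 in Ctns WT number 7 against 2.21 to 2.25, SDF2L1 0.638 in Ctns WT number 7 against 0.321 to 0.335, and PSPH 0.372 in Ctns KO number 5 against 0.341 to 0.345. In the rat, ASNS was 9.25 CPM in Ctns WT number 21 against 7.97 to 8.17 CPM, PSAT1 293 CPM in Ctns WT number 27 against 247 to 253 CPM, and ATF6 139 CPM in the same animal against 101 to 108 CPM.

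The change in Ctns KO differed between the rat number ranges for 11 members (edgeR interaction, as log2 change in 25 to 32 minus that in 17 to 24). The difference was 1.84 for TRIB3, 1.32 for NUPR1, 0.87 for ASNS, 0.73 for SDF2L1, 0.67 for DDIT3, 0.63 for CRELD2, 0.59 for PPP1R15A, 0.48 for PDIA4, 0.46 for PDIA6, -0.39 for SHMT2 and -0.59 for PSAT1. Between species (limma interaction, rat minus mouse) it was 1.43 for SDF2L1, 1.15 for MTHFD2, 0.36 for DNAJB11 and -1.26 for PHGDH. Species and the processing of each table cannot be told apart.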

How the results depend on the processing

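Of 2086 values of named members under an alternative, 1886 kept their direction and side of the threshold, 39 changed sign without being called either way, 108 lost a call and 53 gained one. No called value changed sign. Members lower in the mouse numbered 5, 3 without a filter and 8 with DESeq2. Within rats 17 to 24, 1 was lower, 3 with DESeq2 and 0 with those 8 rats alone. Members changing more upwards in 25 to 32 numbered 9, and 14 with DESeq2. Members higher in rat than mouse numbered 3, 6 with log2(value + 1) and 5 with edgeR. The shares of all genes called under these alternatives, or with 1 animal left out, are not given here. The causes were not tested. Leaving out 1 animal gave 0 to 4 higher and 1 to 4 lower in the mouse, 4 to 8 and 3 to 5 in all rats, 0 to 2 and 0 to 2 within 17 to 24, 12 to 18 and 5 to 7 within 25 to 32, 8 to 13 and 1 to 5 for the difference between ranges, and 1 to 7 and 1 to 1 for that between species. Among all rats, the DNAJC3 call was kept only without Ctns KO 30 or Ctns WT 17 or 19 (adjusted p up to 0.132, edgeR). The DDIT3 call was lost without Ctns KO 26, 28 or 30 or Ctns WT 27 (up to 0.0624). The CRELD2 call in all rats (adjusted p = 0.0471, edgeR) was lost without Ctns KO 26, 28, 30 or 32 or Ctns WT 17, 19, 25, 27 or 31. It was also lost with no filter (adjusted p over these settings up to 0.0981, edgeR). No paired analysis was made. The replicate numbers are those of the animals and pair no Ctns KO with a Ctns WT animal. The litter of each animal is not given in the labels used here, so litter was not modelled. Low read numbers left FGF21 untested.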
